A study of Homo sapiens with 4 samples.

Results

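The 40 genes described here drive and carry out cell division, from the G1 cyclins and the replication machinery to the mitotic spindle. They were chosen by Ensembl gene ID, and each ID was paired with its symbol in the choice of the genes. All 40 were among the 60676 IDs of the count files. They were read in 4 RNA sequencing libraries of MiaPaCa, a human pancreatic cancer cell line. The cells had been transfected with variant 1 or variant 2 of SRP9. This protein helps to form the Alu domain of the signal recognition particle, the ribonucleoprotein that guides nascent secretory proteins to the endoplasmic reticulum. In both cases the protein carried a triple FLAG tag and a nuclear localisation signal, was expressed from a vector that also encodes a green fluorescent protein, and the cells had been selected with Geneticin and sorted for that fluorescence. For each variant, 1 library came from RNA that was pulled down with the tagged SRP9 (RNA immunoprecipitation, RIP). Another came from the whole-cell RNA of that experiment and is called the input. The groups were thus RIP variant 1, RIP variant 2, input variant 1 and input variant 2, with 1 library each and no replicates. All cells expressed a nuclear SRP9 construct in addition to their own SRP9, and no precipitation without the tagged protein was analysed here.

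The cell cycle runs on waves of gene expression. In G1, cyclin D and cyclin E with their kinases release E2F factors, which switch on the genes for DNA replication and nucleotide synthesis. In G2, FOXM1 and related factors switch on the genes for mitosis, whose products build the spindle, guard chromosome attachment and degrade the mitotic cyclins. In fast-growing cancer cell lines most of these mRNAs are abundant.

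The RIP libraries of variants 1 and 2 held 3921361 and 5211354 counts, and the inputs held 50454080 and 58815384. Levels are given in CPM, counts relative to library size, after TMM scaling, which sets the libraries on a common scale by the trimmed mean of their ratios. All 40 genes had counts in all 4 libraries, with 36 to 1798 in the RIP libraries and 1178 to 96062 in the inputs. None shared its values with another ID in all libraries. The files do not pair IDs with symbols, so the lists of other cell cycle genes and of cell type markers were not analysed here, and the cell line was not checked against its markers.

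The mRNAs of the cell cycle were scarcer in both RIP libraries than in the inputs. Together the 40 genes took 0.324% of all counts in RIP variant 1 (95% exact Clopper-Pearson interval 0.318% to 0.330%) and 0.240% in RIP variant 2 (0.236% to 0.244%), against 1.11% (1.109% to 1.115%) in input variant 1 and 1.09% (1.085% to 1.090%) in input variant 2. The summed share was therefore 3.43-fold lower in RIP for variant 1 and 4.53-fold lower for variant 2. This share does not depend on TMM scaling, and its intervals cover counting error only. The fall is not particular to these genes, since most IDs as abundant in the inputs as most of them were called lower in RIP too (below). Without MKI67, the most counted of them, the RIP shares were 0.278% and 0.217%, against input shares of 0.945% and 0.924%.

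**Figure D1:**
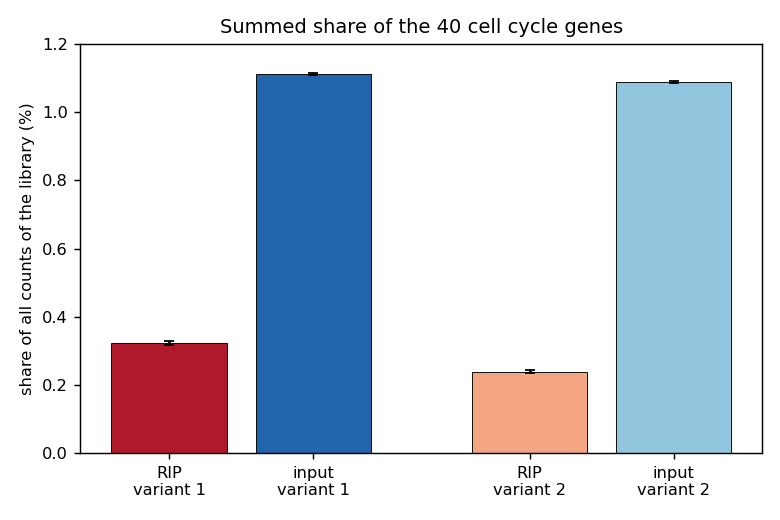
Share of all counts of a library taken by the 40 cell cycle genes together, in percent, for RIP and input of variants 1 and 2 (1 library per bar). Error bars are exact 95% binomial intervals, which cover counting error only. The RIP bars stand at 0.324% and 0.240%, and the input bars at 1.11% and 1.09%.

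In the comparison of RIP with input over both variants, all 40 genes were called lower in RIP (edgeR's quasi-likelihood test over all IDs, Benjamini-Hochberg adjusted p under 0.05, largest adjusted p 0.047). Over all 41622 IDs tested, 15.8% were called lower. The median log2 fold change of the 40 genes was -3.06, an 8.33-fold lower level, against a median of 3.65 over all IDs tested. A closer background are the 15450 IDs whose count reached 50 in input variant 1 and in input variant 2, called input-expressed here. Of these, 42.1% were called lower and the median was -1.15. With library totals in place of TMM, that median became 0.05 and that of the 40 genes -1.86. The distance between the medians was -1.91 in both cases, or 3.8-fold. A change of scaling shifts all IDs nearly alike and so leaves this distance almost fixed. It was 4.34-fold without RIP variant 1 and 2.97-fold without RIP variant 2. The size of each fold depends on the scaling. Folds are given below with TMM over all IDs, and for each of the 40 genes they were 2.29 to 2.31 times as large as on library totals, and 2.17 times as large as with TMM on the input-expressed IDs alone. The folds of the 40 genes ran from 2.57 to 25.5 with TMM over all IDs, from 1.18 to 11.8 on the input-expressed IDs and from 1.11 to 11.1 on library totals. The p-values treat the variants as samples of a fraction and measure only the spread between these 4 libraries.

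Both RIP levels lay below both input levels for all 40 genes with TMM scaling, as for 23.8% of all IDs tested and 62.3% of the input-expressed IDs. On library totals this held for 38 genes, against 39.4% of the input-expressed IDs, and E2F1 and CCNE1 overlapped. When the 15450 input-expressed IDs were fitted alone with their own scaling, 36 of the 40 genes were called lower, against 23.7% of the IDs in that fit. The other 4 were CDK1, CENPE, E2F1 and CCNE1, with edgeR adjusted p of 0.058, 0.092, 0.45 and 0.69. With the construct as a block, 39 were called lower, against 12.9% of all IDs tested, and CCNE1 was not (edgeR adjusted p = 0.12). Library totals gave 36 lower calls, against 7.72% of all IDs tested. CCNE1 was also not called without RIP variant 1, RIP variant 2 or input variant 1 (edgeR adjusted p = 0.15, 0.092 and 0.17), and E2F1 was not called without RIP variant 2 (edgeR adjusted p = 0.082).

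**Figure D2:**
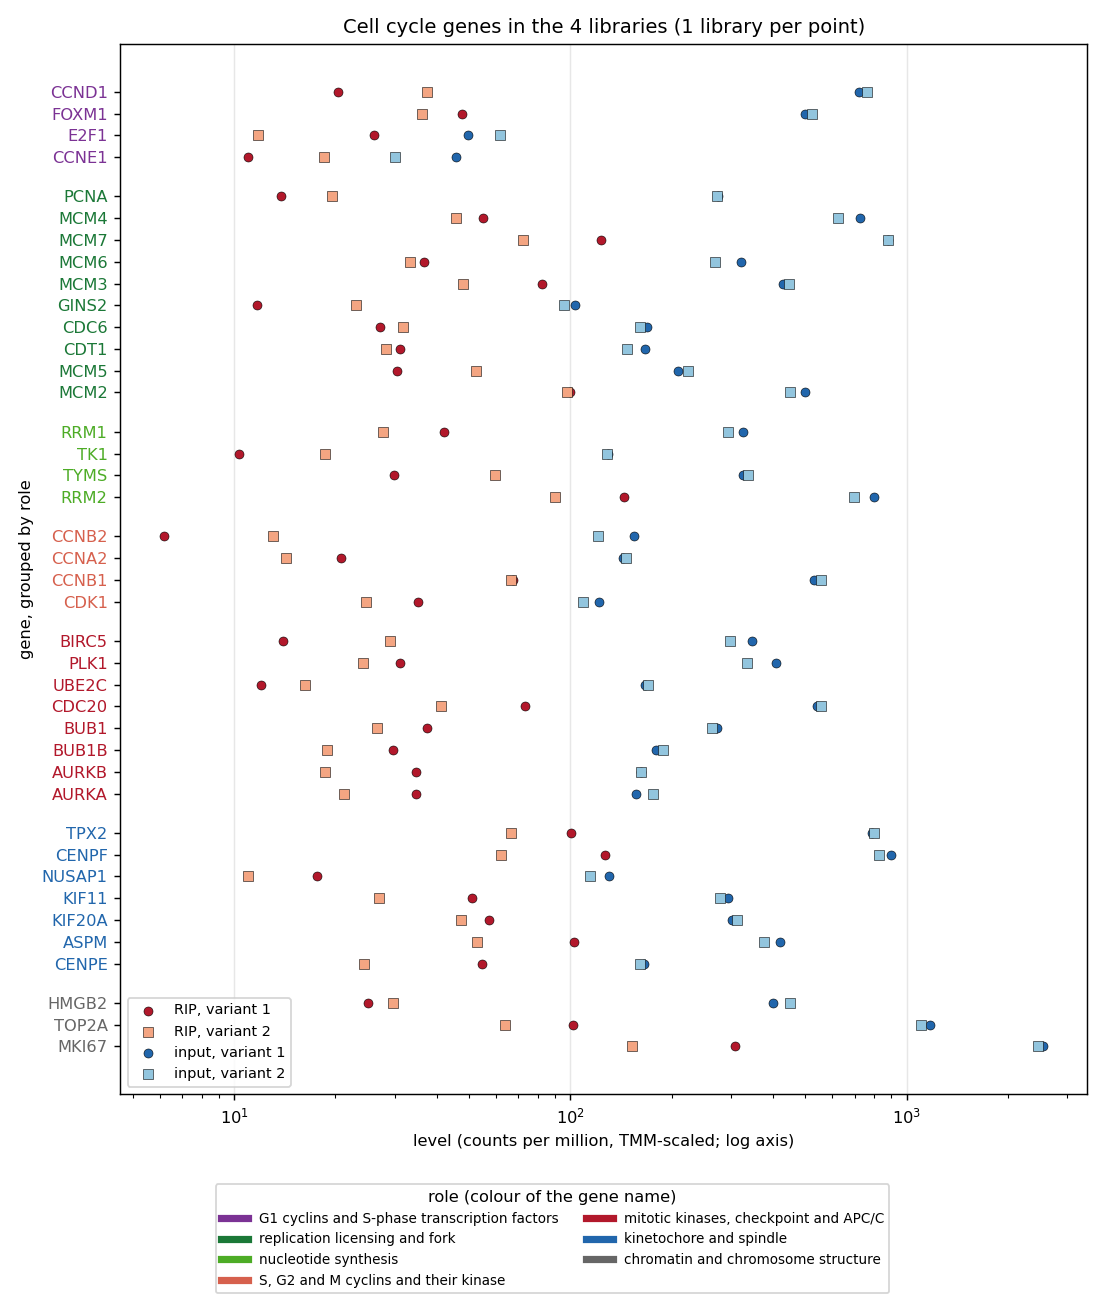
Level of each of the 40 genes in the 4 libraries, in TMM-scaled CPM on a log axis, with genes grouped by role. Each point is 1 library, without replicates. For every gene both RIP points (red shades) lie left of both input points (blue shades), with the smallest distance for CCNE1 and E2F1.

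For most of the genes, the lower level in RIP was shared by nearly all IDs that were as abundant in the inputs. Among IDs with a summed input count above 20000 and up to 100000, 99.8% were called lower and the median log2 fold change was -3.22. The 21 cell cycle genes of that band had a median of -3.17. Among IDs above 5000 and up to 20000, 92.6% were called lower with a median of -2.26, and the 16 cell cycle genes there had a median of -2.77. CCNE1 and E2F1 fell in the band from 1000 to 5000, where 35.8% were called lower with a median of -1.01. MKI67 was the only one above 100000, where 91.4% were called lower and the median was -3.76. Most IDs of the band were thus called lower too for 38 of the 40 genes, but not for CCNE1 and E2F1, whose band had a median of 0.19 on library totals. Relative to the median of their band, 25 genes were lower and 15 higher, with a median distance of -0.24 on the log2 scale. The bands are set by the inputs, which are also the denominators of the fold changes.

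Within these bands single genes stood far apart. CCND1 had a fold change below that of all but 3.37% of the IDs of its band, PCNA below all but 3.34%, CCNB2 below all but 5.00% and UBE2C below all but 8.36%. At the other end, 89.7% of the IDs of its band had a lower fold change than MCM2, 86.7% than ASPM and 80.5% than KIF20A. In total 14 of the 40 genes lay in the lowest 25% of their band and 4 in the highest 25%, RRM2 being the fourth. PCNA has a summed input count of 19707, just under the edge of its band. The band median steps from -2.26 to -3.22 at 20000 counts, so ranks and distances depend on a gene's place in its band. BUB1, with 19318 counts and a log2 fold change of -3.07, stood at -0.81 from its band median. KIF11, with 20588 counts and a log2 fold change of -2.88, stood at 0.34 from its own.

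**Figure D3:**
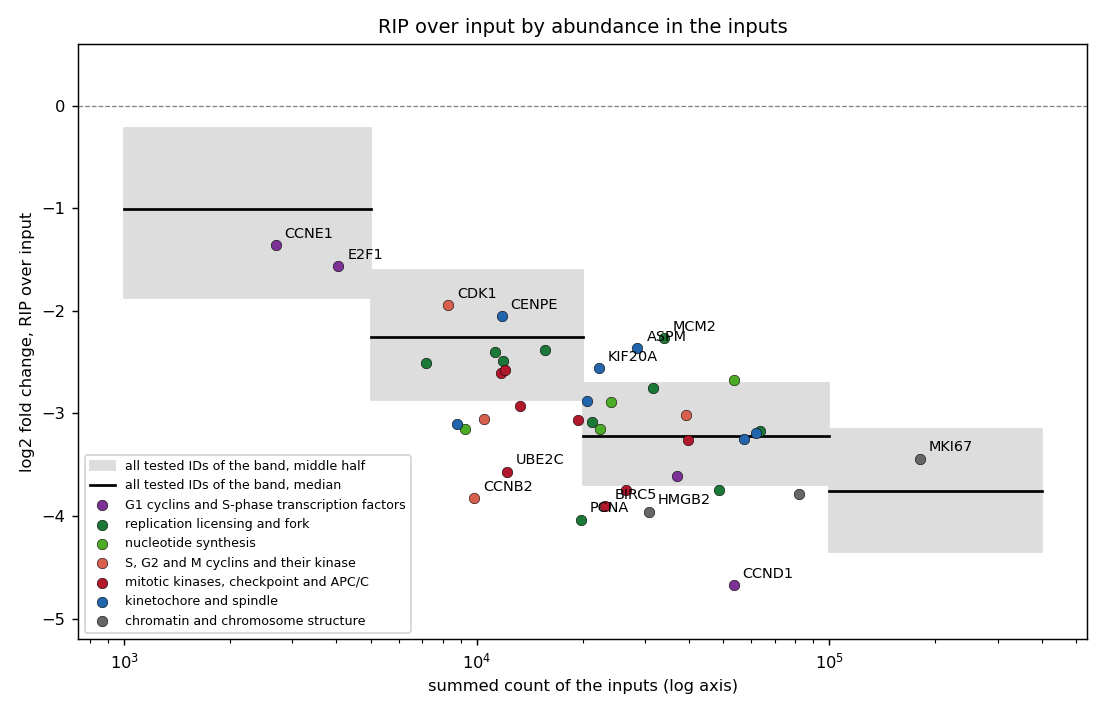
Log2 fold change of RIP over input (both variants, edgeR) against the summed count of the inputs on a log axis. Points are the 40 genes coloured by role, and the grey boxes and black lines give the interquartile range and the median of all tested IDs in bands of input count. The points follow the falling medians, with PCNA at -4.04 furthest below the median of its band and MCM2 at -2.26 furthest above.

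The promoters of 3 genes that mark these extremes are shown for the elements that cell cycle genes are known for. Many G2 genes carry CCAAT boxes in their promoters. A cell cycle homology region, often with the letters TTTGAA, lies close to the start of many of the same genes. Sites of E2F type are common in S-phase genes. The sequences are given for CCNB2 (chr15:59104896-59105195, plus strand), PCNA (chr20:5126573-5126872, minus strand) and MCM2 (chr3:127598161-127598460, plus strand), from 250 bases before to 50 after the start, from RefSeq on GRCh38.p14, each 5′ to 3′ on its gene's strand. Capitals mark, on either strand, the CCAAT box, the homology region by its letters TTTGAA, and the E2F-type words TTTCCCGC, TTTGGCGC, TTTCGCGC and TTTGCCGC. In MCM2, TTTCGCGC overlaps its own reverse complement.
CCNB2: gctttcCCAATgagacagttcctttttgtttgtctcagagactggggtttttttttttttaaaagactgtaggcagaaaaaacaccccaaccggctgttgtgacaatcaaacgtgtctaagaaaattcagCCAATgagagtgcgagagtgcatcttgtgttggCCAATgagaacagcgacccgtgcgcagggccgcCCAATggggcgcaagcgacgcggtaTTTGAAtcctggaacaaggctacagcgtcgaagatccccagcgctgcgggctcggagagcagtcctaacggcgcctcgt
PCNA: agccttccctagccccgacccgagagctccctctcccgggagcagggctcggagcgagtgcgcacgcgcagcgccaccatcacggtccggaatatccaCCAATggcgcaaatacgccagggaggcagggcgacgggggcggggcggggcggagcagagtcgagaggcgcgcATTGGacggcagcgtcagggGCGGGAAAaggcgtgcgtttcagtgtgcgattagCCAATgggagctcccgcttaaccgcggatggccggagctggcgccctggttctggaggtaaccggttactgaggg
MCM2: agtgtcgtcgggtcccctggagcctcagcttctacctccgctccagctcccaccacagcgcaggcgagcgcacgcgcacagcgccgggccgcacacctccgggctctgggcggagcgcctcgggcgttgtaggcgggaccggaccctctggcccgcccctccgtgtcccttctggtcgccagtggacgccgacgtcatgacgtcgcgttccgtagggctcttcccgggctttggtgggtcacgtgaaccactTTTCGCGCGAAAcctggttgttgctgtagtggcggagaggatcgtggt
Promoter sequences were found for 31 of the 40 genes. An E2F-type word was present in 12 of the 31 (38.7%), against 3.31% of all 35116 promoters in the table. TTTGAA was present in 12 (38.7%) against 15.2%, and CCAAT in 24 (77.4%) against 34.6%. A match is a stretch of letters and not a measured binding site. RIP over input had a median log2 fold change of -2.63 in the genes with an E2F-type word and -3.05 in those without. It was -3.17 with TTTGAA and -2.68 without, and -3.06 with CCAAT and -2.40 without. These medians were not set against the bands of input count, across which the fold changes fall. Genes with and without an element can differ in input count. Whether an element goes with a larger change at like input count was not tested. No test was made. No promoter sequence was found for AURKA, BIRC5, CCND1, FOXM1, HMGB2, MCM4, MCM5, TPX2 and UBE2C, so these medians lack them. Of these, BIRC5, CCND1, FOXM1, HMGB2, MCM4 and UBE2C are among the 12 largest changes.

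The G1 cyclins and the transcription factors held both the largest and the smallest change. CCND1 (ENSG00000110092) encodes cyclin D1, the growth factor-responsive partner of CDK4 and CDK6. Its level was 20.3 CPM with variant 1 in RIP (exact Poisson interval 16.8 to 24.3) and 37.5 CPM with variant 2 (33.4 to 42.1), against 720 and 762 CPM in the inputs. CCND1 was 25.5-fold lower in RIP (log2 fold change -4.67, edgeR adjusted p = 0.00066; 11.8-fold in the fit of input-expressed IDs and 11.1-fold on library totals), the largest fold of the 40 under each of these scalings, and its 2 RIP levels were far below both inputs. FOXM1 (ENSG00000111206), which switches on mitotic genes, had 47.5 and 36.1 CPM in RIP variants 1 and 2 and 500.2 and 523 CPM in the inputs, a 12.2-fold lower level (edgeR adjusted p = 0.00061).

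The smallest changes of the 40 were those of E2F1 and CCNE1. E2F1 (ENSG00000101412), the founding E2F factor, had 25.97 and 11.8 CPM in RIP variants 1 and 2, against 49.7 and 61.6 CPM in the inputs (2.95-fold lower, edgeR adjusted p = 0.026). CCNE1 (ENSG00000105173) encodes cyclin E1, the partner of CDK2 at the entry into S phase. It had 11.0 and 18.5 CPM in RIP, against 45.7 and 30.1 CPM in the inputs (2.57-fold lower, edgeR adjusted p = 0.047). In single variants E2F1 was 1.91-fold and 5.19-fold lower in RIP with variants 1 and 2, and CCNE1 4.13-fold and 1.63-fold. For single variants the direction of these genes depended on the scaling. E2F1 had a log2 ratio of RIP over input of -0.93 with variant 1 under TMM and 0.26 on library totals, and CCNE1 had -0.71 with variant 2 under TMM and 0.50 on library totals.

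All 10 replication genes were lower in RIP, by 4.80-fold to 16.4-fold. In their 2 bands of input count, 92.6% and 99.8% of all IDs were called lower too. The median distance of these genes from the median of their band was -0.14 on the log2 scale. PCNA (ENSG00000132646), the sliding clamp of the replicative polymerases, had 13.8 and 19.5 CPM in RIP variants 1 and 2 and 275 and 272 CPM in the inputs, and was 16.4-fold lower (edgeR adjusted p = 0.00061). The MCM genes encode the subunits of 1 hexameric helicase, yet their changes were spread out. MCM4 (ENSG00000104738) had 55.0 and 45.7 CPM in RIP and 729 and 626 CPM in the inputs, a 13.5-fold lower level (edgeR adjusted p = 0.00060). MCM2 (ENSG00000073111) had 99.8 and 97.5 CPM in RIP and 498 and 448 CPM in the inputs, a 4.80-fold lower level (edgeR adjusted p = 0.0011). The difference between these helicase genes was present with each variant, with 13.2-fold and 13.7-fold lower levels of MCM4 and 4.99-fold and 4.60-fold lower levels of MCM2 for variants 1 and 2. MCM7, MCM6, MCM3 and MCM5 lay between them, at 8.98-fold, 8.46-fold, 6.75-fold and 5.22-fold. The loading factors CDC6 and CDT1 and the helicase cofactor gene GINS2 were 5.60-fold, 5.29-fold and 5.71-fold lower.

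The genes of nucleotide synthesis changed to a similar extent, by 6.39-fold to 8.91-fold. Of all IDs in their bands of input count, 92.6% and 99.8% were called lower too. RRM1 (ENSG00000167325) and RRM2 (ENSG00000171848) encode the large and the small subunit of ribonucleotide reductase. RRM1 had 42.1 and 27.6 CPM in RIP variants 1 and 2 against 326 and 295 CPM in the inputs (8.91-fold lower, edgeR adjusted p = 0.00098). RRM2 had 144 and 90.2 CPM in RIP against 801 and 697 CPM in the inputs (6.39-fold lower, edgeR adjusted p = 0.0015). TYMS (ENSG00000176890) makes thymidylate from deoxyuridylate, and TK1 salvages thymidine. TYMS had 29.8 and 59.7 CPM in RIP and 327 and 337 CPM in the inputs (7.39-fold lower, edgeR adjusted p = 0.0022), and TK1 was 8.88-fold lower.

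CDK1 (ENSG00000170312) and its cyclins drive cells through G2 into mitosis, and their mRNAs differed from each other. CCNB2 (ENSG00000157456), a B-type cyclin gene, had 6.19 CPM with variant 1 in RIP (exact Poisson interval 4.34 to 8.57) and 13.1 CPM with variant 2 (10.7 to 15.9), from 36 and 102 counts, against 154 and 121 CPM in the inputs. It was 14.2-fold lower in RIP (edgeR adjusted p = 0.0016). The kinase gene CDK1 had 35.1 and 24.7 CPM in RIP against 122 and 109 CPM in the inputs, and was 3.86-fold lower (edgeR adjusted p = 0.0040). CCNB1, the major B-type cyclin gene, and CCNA2, the cyclin of S and G2 phase, lay between them at 8.11-fold and 8.29-fold. Most IDs in the bands of these genes were called lower too (92.6% and 99.8%).

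All 8 genes of mitotic kinases, the checkpoint and the anaphase-promoting complex were lower in RIP, as were most IDs of their abundance bands (92.6% and 99.8%). All 8 lay below the median of their band, by a median log2 distance of -0.60. This distance depends in part on where a gene lies within its band, as given above for BUB1. BIRC5 (ENSG00000089685) encodes survivin, a subunit of the chromosomal passenger complex. It had 14.0 and 29.0 CPM in RIP variants 1 and 2 and 347 and 299 CPM in the inputs, a 15.0-fold lower level (edgeR adjusted p = 0.0012). PLK1 (ENSG00000166851), a kinase of mitotic entry and spindle assembly, had 31.2 and 24.2 CPM in RIP and 409 and 335 CPM in the inputs (13.4-fold lower, edgeR adjusted p = 0.00062). UBE2C (ENSG00000175063), the ubiquitin-conjugating enzyme of the anaphase-promoting complex, had 12.04 and 16.3 CPM in RIP and 166 and 170.4 CPM in the inputs (11.9-fold lower, edgeR adjusted p = 0.00073). CDC20 (ENSG00000117399) activates the same complex. It had 73.4 and 41.1 CPM in RIP and 543 and 555 CPM in the inputs (9.59-fold lower, edgeR adjusted p = 0.0012). AURKA (ENSG00000087586), a kinase of the centrosomes, changed least, with 34.7 and 21.1 CPM in RIP and 157 and 176 CPM in the inputs (5.97-fold lower, edgeR adjusted p = 0.0023). The checkpoint kinase genes BUB1 and BUB1B were 8.38-fold and 7.61-fold lower, and AURKB, the kinase of the passenger complex, 6.10-fold.

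The 7 kinetochore and spindle genes were lower by 4.14-fold to 9.54-fold, and 5 of them lay above the median of their band. In their bands, 92.6% and 99.8% of all IDs were called lower too. KIF11 and KIF20A lay not far above the lower edge of theirs, where the band median steps down. TPX2 (ENSG00000088325), which nucleates spindle microtubules and activates Aurora A, had 100.3 and 66.4 CPM in RIP variants 1 and 2 against 789 and 800.3 CPM in the inputs (9.54-fold lower, edgeR adjusted p = 0.00078). CENPF (ENSG00000117724), a large protein of the outer kinetochore, had 126 and 62.2 CPM in RIP and 896 and 827 CPM in the inputs (9.15-fold lower, edgeR adjusted p = 0.0017). CENPE (ENSG00000138778) is the kinesin that brings chromosomes to the spindle equator. It had 54.7 and 24.3 CPM in RIP and 165 and 161 CPM in the inputs (4.14-fold lower, edgeR adjusted p = 0.0077). NUSAP1, a microtubule-bundling protein gene, the kinesin genes KIF11 and KIF20A, and ASPM, a gene for a spindle pole protein, were 8.59-fold, 7.37-fold, 5.89-fold and 5.15-fold lower.

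The 3 chromatin and chromosome genes were lower by 10.9-fold to 15.5-fold with TMM over all IDs, by 5.00-fold to 7.16-fold in the fit of input-expressed IDs and by 4.74-fold to 6.76-fold on library totals. They are abundant in the inputs, and most IDs of their bands were called lower too. This share was 99.8% in the band of HMGB2 and TOP2A and 91.4% in that of MKI67. Their log2 distances from the band median were -0.74, -0.56 and 0.32. HMGB2 (ENSG00000164104), a DNA-bending chromatin protein gene, had 24.9 and 29.7 CPM in RIP variants 1 and 2 and 399 and 451 CPM in the inputs, and was 15.5-fold lower (edgeR adjusted p = 0.00060). TOP2A (ENSG00000131747), which disentangles sister DNA, had 101 and 63.8 CPM in RIP and 1172 and 1104 CPM in the inputs (13.8-fold lower, edgeR adjusted p = 0.00067). MKI67 (ENSG00000148773) encodes the Ki-67 antigen that coats mitotic chromosomes. It had 309 and 153 CPM in RIP and 2554 and 2458 CPM in the inputs (10.9-fold lower, edgeR adjusted p = 0.0013).

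Each variant was also set against its own input, with 1 library a side and no test. For variant 1, 39 of the 40 genes were at least 2-fold lower in RIP, against 23.0% of all IDs tested and 54.7% of the input-expressed IDs. E2F1 was the exception, at 1.91-fold. For variant 2, 39 were at least 2-fold lower too, against 21.2% and 53.4%, and CCNE1 was the exception at 1.63-fold. The median log2 ratio of the 40 genes was -2.87 for variant 1 and -3.26 for variant 2. Across the 40 genes the ratios of the variants had a Spearman correlation of 0.61. The ratios share no library, but the inputs were nearly alike (Spearman correlation of counts 0.99), so they have similar denominators.

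The RIP libraries differed from each other gene by gene, at single-library resolution. Of the 40 genes, 28 had a higher level with variant 1 and 12 a higher level with variant 2, with a median log2 ratio of 0.44. Of the 37 genes with a summed input count above 5000 and up to 100000, 26 (70.3%) were higher with variant 1, against 51.4% of all IDs of that input count. At least 2-fold higher in variant 1 were 2 of these 37 genes (5.41%), against 7.75% of those IDs, and 2 (5.41%) were at least 2-fold lower, against 10.4%. Of the 3 genes outside that range, E2F1 and MKI67 were also at least 2-fold higher in variant 1. On library totals, 2 genes were at least 2-fold higher in variant 1 and 3 lower. The exact 95% interval of the ratio, which covers counting error only, lay above 1 for 24 genes, below 1 for 10 and included 1 for 6. The share of other IDs whose interval excludes 1 was not analysed here. These counts can therefore not be read as particular to the 40 genes.

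Those higher in RIP variant 1 included all 7 kinetochore and spindle genes. Of all 40 genes 28 were higher, and of all IDs with a summed input count above 5000 and up to 100000, 51.4%. All of the 7 but KIF20A also span over 40 kb (below), so role and span cannot be told apart here. CENPE stood at 54.7 CPM with variant 1 and 24.3 CPM with variant 2, a ratio of 2.25 (exact interval 1.87 to 2.70), while its inputs differed by a ratio of 1.02. CENPF had a ratio of 2.03 (1.81 to 2.29) and MKI67 one of 2.02 (1.88 to 2.18), with input ratios of 1.08 and 1.04. E2F1 had a ratio of 2.20 (1.69 to 2.89) in RIP and 0.81 in the inputs. The inputs of these genes were thus close to equal or went the other way. For the 7 spindle genes the median log2 ratio was 0.91 in RIP, against 0.08 in the inputs.

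Members of the other roles lay on both sides. With variant 1, 3 of the 4 genes of the S, G2 and M cyclins and their kinase were higher in RIP, 6 of the 10 replication genes and 2 of the 4 genes of nucleotide synthesis. RRM2, RRM1 and CCNA2 had ratios of 1.60 (exact interval 1.45 to 1.77), 1.52 (1.26 to 1.84) and 1.46 (1.12 to 1.91). At the other end, CCNB2 was 2.11-fold lower in RIP variant 1 than in RIP variant 2 (exact interval 1.43 to 3.18), BIRC5 2.08-fold (1.61 to 2.71) and TYMS 2.0-fold (1.67 to 2.39). GINS2, CCND1, TK1, MCM5 and CCNE1 followed, lower by 1.97-fold, 1.85-fold, 1.80-fold, 1.72-fold and 1.68-fold. Within the MCM helicase the subunits thus differed, since MCM7 and MCM3 were each 1.71-fold higher in RIP variant 1 and MCM2 had a ratio of 1.02. With 1 RIP library per variant, a difference between variants and a difference between precipitations cannot be told apart.

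**Figure D4:**
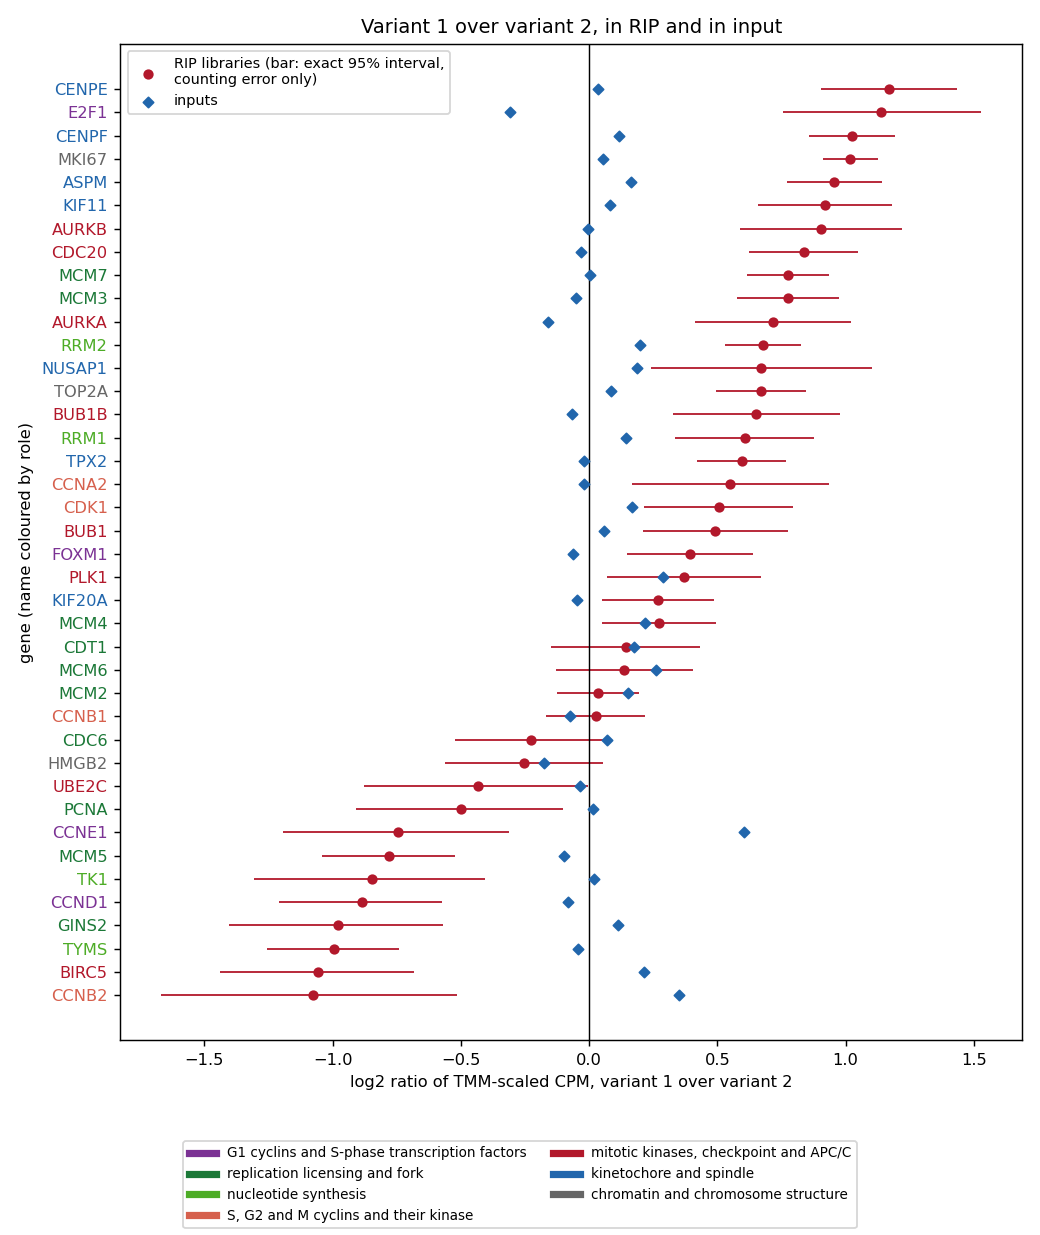
Log2 ratio of TMM-scaled CPM, variant 1 over variant 2, for the 40 genes. Red points give the RIP libraries with exact 95% intervals for counting error only, and blue diamonds the inputs. The red points run from CENPE (ratio 2.25) down to CCNB2 (0.47), while most diamonds lie near 0.

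In whole-cell RNA the levels of the cell cycle genes were close between the transfected lines. None of the 40 genes was at least 2-fold apart between the inputs. Few IDs of like abundance were either, with 0.115% of those with a summed input count above 5000 and up to 100000, against 7.40% of all input-expressed IDs. Over the 40 genes, the log2 ratio of variant 1 over variant 2 had an SD of 0.69 in RIP and 0.16 in the inputs. The largest differences were those of CCNE1, which was 1.52-fold higher in input variant 1, and CCNB2, at 1.27-fold. In the other direction E2F1 was 1.24-fold and HMGB2 1.13-fold lower in input variant 1. Over the 15450 input-expressed IDs, which include IDs with far lower counts, the SD was 1.16 in RIP and 0.53 in the inputs. The wider spread in RIP was thus not particular to the 40 genes. The RIP libraries were shallower, and how much of their wider spread is counting error was not tested.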

How the data were processed

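The values deposited by the authors are estimated counts per Ensembl gene ID without normalization, and 15 of the 40 genes have a fractional value. Per the submitters' processing notes, HISAT2 2.1.0, featureCounts from Subread 2.0.0 and GRCh38.p13 were used. The strand setting, the annotation release and multi-mapper handling were not given in the sources used here, so reads of overlapping or antisense genes cannot be told apart.

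Counts were rounded and tested with edgeR 4.0.16 (R 4.3.3) over all IDs passing its expression filter (minimum count 10), with TMM scaling. The 2 variants stood as samples of each fraction, leaving 2 residual degrees of freedom. Alternatives used DESeq2 1.42.0, limma 3.58.1, other scalings and filters, and each library left out. The pairing of RIP and input within an experiment comes from the labels, so the construct served as a block in an alternative. The difference between the RIP libraries and that between the inputs had a correlation of -0.0034 over 15450 IDs. Comparisons of 2 libraries use TMM-scaled CPM. Log2 ratios add a prior count of 2, and the ratios quoted with intervals add none. On simulated counts with 200 changed IDs among 41192, 184 were recovered with 2 false calls. All other IDs had equal means in RIP and input there, whereas 20595 higher and 6583 lower calls were made in the real data. The simulation therefore cannot show how many false calls arise under so wide a shift. Intervals are at 95% and cover counting error only, not the spread between replicate libraries. Amplified reads are not independent molecules, so the intervals may be too narrow even for counting error. A count of 0 would allow 3 counts, but none of the 40 genes was at 0.

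The genes, their roles and the settings were chosen with earlier results of these data known. Values in all libraries were printed for the genes with the highest and lowest fold change of each of the 7 roles, the 12 largest changes, and those furthest apart between the RIP libraries (3 each way) or the inputs (2 each way). Others are given by their fold. Gene spans were matched by symbol for all 40 genes in a RefSeq table of GRCh38.p14, in which 0 of 59792 genes have an Ensembl ID. Protein lengths were not used here.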

Additional observations from a re-analysis of the deposited data

How the results depend on the processing

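All 40 genes stayed lower in RIP under every alternative of the test of RIP against input, and 36 to 40 were called. Leaving out 1 library gave 38 to 40 calls of lower genes and 0 to 0 of higher genes. Calls were lost only for CCNE1, E2F1, CDK1 and CENPE. CDK1 and CENPE were lost on library totals (edgeR adjusted p = 0.075 and 0.11) and in the fit of input-expressed IDs alone. Over all IDs, 6583 were called lower, and 3213 on library totals. Higher calls numbered 20595, and 8289 with the construct as replicate block. Of the 15450 input-expressed IDs, 3658 were called lower and 3421 higher in their own fit, against 6509 and 1287 in the fit over all IDs. Leaving out 1 library gave 938 to 18394 higher calls (938 without RIP variant 1, 1082 without RIP variant 2) and 5275 to 6452 lower calls. The cause was not tested. Among the 40 genes, the block changed no call other than that of CCNE1. Between the RIP libraries, 1 gene was at least 2-fold lower in variant 1 with DESeq2 size factors, and 2 were at least 2-fold higher on library totals. On library totals the input bands had median log2 fold changes of 6.38 (1 to 50 counts), 3.39 (to 200), 1.63 (to 1000), 0.19 (to 5000), -1.05 (to 20000), -2.02 (to 100000) and -2.56 (above). The counts of genes at least 2-fold apart from their own input stayed within 1.5 times under other scalings and a prior count of 0.5. CCNB2 in RIP variant 1, with 36 counts, is the value that depth limits most.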

Other observations

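The genes differ widely in the length of genome they span, from 2.98 kb for HMGB2 to 92.5 kb for CENPE, in the RefSeq annotation. Across the 40 genes, RIP over input had a Spearman correlation of 0.17 with gene span, of 0.23 for variant 1 and 0.04 for variant 2, which share the annotation and nearly equal inputs. The ratio of RIP variant 1 over RIP variant 2 had one of 0.34, and the ratio of the inputs one of 0.23. This last pair was chosen after seeing the data. Of the 11 genes that span over 40 kb, 10 had a higher RIP level with variant 1 than with variant 2, with a median log2 ratio of 0.67. MCM5 was the other. The 11 include the spindle genes TPX2, CENPF, NUSAP1, KIF11, ASPM and CENPE, so this pattern and that of the spindle genes rest largely on the same genes. Of all IDs with a summed input count above 5000 and up to 100000, 51.4% were higher with variant 1. The share among all IDs of like span was not analysed here. Of the 21 genes from 10 to 40 kb, 12 were higher (median 0.03), and of the 8 up to 10 kb, 6 were (median 0.41). Spliced transcript lengths were not used here, and no test was made.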
